A study of Mus musculus with 6 samples.

Results

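Complement is a cascade of plasma and cell-surface proteins that marks particles and cells for removal. The classical, lectin and alternative routes of activation converge on cleavage of C3, and a terminal pathway assembles a membrane pore. Soluble and membrane-bound inhibitors hold the cascade in check on host cells. The liver is the main source of the circulating components, and epithelial cells, fibroblasts and macrophages also make some of them. The 9 genes described here cover the classical proteases C1ra and C1s1, the components C4b, C3 and Cfb, the soluble regulators Cfi and Serping1 and the membrane regulators Cd55 and Cd59a. They were taken by symbol from the 55401 gene IDs of the count tables, each symbol matched a single ID, and all 9 had enough reads to be tested.

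Polyadenylated RNA was measured in primary cholangiocytes, the epithelial cells of the bile ducts, from wild-type (WT) mice and mice with polycystic liver disease (PLD), with 3 libraries per group. Animals of both groups were studied 3 months after tamoxifen. The sources used here give no strain, age, allele behind the PLD genotype, promoter of a Cre transgene or pooling of animals. Cells were released from perfused, collagenase-digested livers and collected with beads against EpCAM, a surface protein of epithelial cells. No label ties each library to an animal of its own, and the spread behind the p-values may therefore be technical.

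The libraries held 15768561 to 16710548 counted reads. The label was set against 7 marker lists, given here as summed CPM (reads scaled to a common library size with TMM factors) over each list. All 12 epithelial and cholangiocyte markers were higher in PLD, with sums of 8180 to 11806 CPM in WT and 26094 to 34306 in PLD. All 10 endothelial markers were lower, with sums of 4354 to 5825 CPM in WT and 289 to 527 in PLD. Of 12 fibroblast and stellate markers 9 were lower and 1 higher (7347 to 12742 CPM in WT, 1795 to 4620 in PLD). Of 10 hepatocyte markers 3 were lower and 2 higher (1371 to 2458 and 2063 to 6151 CPM, most of it Alb, which did not pass), and of 8 macrophage markers 1 was lower and 3 higher (907 to 1217 and 1240 to 1685 CPM). Of 6 mesothelial markers 5 were tested, 3 lower and 1 higher (117 to 164 and 768 to 1166 CPM, where Msln alone made up 738 to 1156 of the PLD sum and Wt1, Lrrn4 and Gpm6a fell), and of 5 neutrophil markers 3 were tested, 2 of them lower (19.5 to 38.2 and 7.33 to 16.3 CPM). No marker was at 0 in all libraries, and of the 4 defining markers of each list the neutrophil gene Mpo was at 0 in at least 1 library. WT preparations thus held RNA of endothelial and fibroblast genes in amounts of the same order as epithelial markers. In such bulk samples fewer cells of a type and less RNA per cell cannot be told apart.

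In PLD, 7 of the 9 complement genes fell and 2 rose. Cd59a, C4b, Cd55, C1ra, C1s1, Serping1 and C3 were 5.12-fold to 1.98-fold lower, in that order, and Cfi and Cfb were 2.01-fold and 1.85-fold higher, directions that turn per read of the epithelial gene Epcam, a scale that lowers all genes alike because Epcam itself was 3.06-fold higher in PLD. PLD and WT libraries did not overlap for any of the 9, 7 with PLD below and 2 with PLD above WT, where 66.2% of the 15334 tested genes did not overlap (33.2% below, 33.0% above). The test across all genes called 55.4% of them, 28.4% lower and 27.0% higher in PLD, so the 2 rises among 9 lie near the background share and the 7 falls above it. The median log2 fold change was -1.32 over the 9 genes and 0.01 over all tested genes. The 9 were a chosen list, and no test compared them with other genes. The marker sums above moved in the same libraries, and their part in these changes was not tested.

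**Figure D1:**
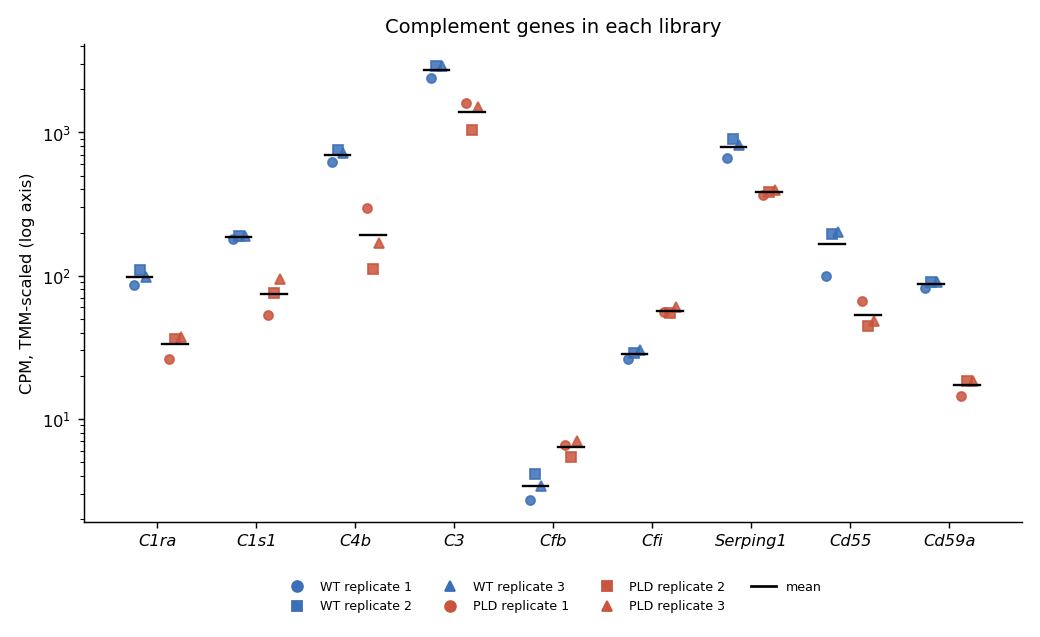
TMM-scaled CPM on a log axis for each of the 9 complement genes, with 1 point per library (blue WT, red PLD, shape by replicate) and a bar at the group mean of 3 libraries. For 7 genes all PLD points lie below all WT points, and for Cfb and Cfi all lie above. Per Epcam read, where all genes are lowered alike, Cfi lies below WT and the groups of Cfb overlap.

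The promoters of C3, C1ra and C1s1 are shown because these genes were lower in PLD and their promoters share a short motif, TTGCNNAA. That pattern is read by factors of the C/EBP family, which drive acute-phase genes in hepatocytes. Sequences are the RefSeq promoters of build GRCm38.p6, from 250 bases before to 50 after the annotated start, which 5 of the 9 genes had. That start is the gene start of the count tables for C3 and C1s1, while for C1ra it lies 216 bases downstream of it. Capitals mark TTGCNNAA on either strand and, in C3, the letters TATAAA.
C3, chr17:57228087-57228386, minus strand: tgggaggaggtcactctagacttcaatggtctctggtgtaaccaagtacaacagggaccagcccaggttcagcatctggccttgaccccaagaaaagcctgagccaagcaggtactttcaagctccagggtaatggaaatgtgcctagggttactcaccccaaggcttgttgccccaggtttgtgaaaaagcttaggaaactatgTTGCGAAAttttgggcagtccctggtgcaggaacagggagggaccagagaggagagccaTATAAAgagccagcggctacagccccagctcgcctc
C1ra, chr6:124512371-124512670, plus strand: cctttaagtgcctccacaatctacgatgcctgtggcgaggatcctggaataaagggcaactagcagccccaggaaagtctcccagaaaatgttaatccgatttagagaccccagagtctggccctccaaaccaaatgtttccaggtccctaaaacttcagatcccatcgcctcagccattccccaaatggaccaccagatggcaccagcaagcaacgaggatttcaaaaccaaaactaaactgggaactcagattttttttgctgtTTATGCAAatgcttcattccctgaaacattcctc
C1s1, chr6:124542310-124542609, minus strand: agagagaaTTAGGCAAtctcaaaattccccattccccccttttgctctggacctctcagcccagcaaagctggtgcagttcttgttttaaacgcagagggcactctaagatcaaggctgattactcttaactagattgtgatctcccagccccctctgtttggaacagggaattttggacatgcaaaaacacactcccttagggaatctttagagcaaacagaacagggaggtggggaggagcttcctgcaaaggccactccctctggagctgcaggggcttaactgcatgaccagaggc
The motif stood in 3 of the 5 promoters and in 10.8% of all 32851 promoters of the same length, counting both strands. Cd55 and Cd59a, whose promoters lacked it, also fell (log2 fold changes -1.64 and -2.36). TATAAA stood in C3 and in 13.6% of all promoters, TTCNNNGAA, a STAT-type pattern, in C1ra and in 8.3%, and the NF-kB consensus in 0 of the 5 and in 8.46%. The marked TTGCNNAA began 45 bases before the start in C3 and 242 before it in C1s1, but 16 bases after it in C1ra, and TATAAA began 14 bases after the start of C3. No 2 of the marked stretches overlapped. The 4 motifs were picked after the expression values were known, and a match describes letters only.

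The classical pathway starts when C1q binds a target and activates the paired proteases C1r and C1s, which then cleave C4 and C2. C1ra (ENSMUSG00000055172.10, mm10 chromosome 6, 124512405 to 124523443, plus strand) had 86.3, 109 and 97.5 CPM in WT and 26.2, 35.9 and 37.0 CPM in PLD, in replicate order. All PLD libraries were below all WT libraries, and PLD replicate 1 was lowest. The means were 97.5 ± 11.3 and 33.0 ± 5.91 CPM (SD, n = 3 each), a log2 fold change of -1.56 with a standard error (SE) of 0.16 (edgeR quasi-likelihood test, Benjamini-Hochberg adjusted p = 0.000226).

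C1s1 lies next to C1ra on the opposite strand (ENSMUSG00000038521.17, chromosome 6, 124530345 to 124542359). It had 180, 189 and 190 CPM in WT and 53.2, 75.7 and 94.3 CPM in PLD. The WT libraries agreed within a 1.05-fold range while the PLD libraries spread over 1.77-fold, again with PLD replicate 1 lowest. The log2 fold change was -1.32 ± 0.19 SE (edgeR adjusted p = 0.00107). Per kb of exonic sequence that no other annotated gene shares, C1ra stood at 0.410 to 0.494 of the C1s1 level in WT and at 0.336 to 0.422 in PLD. These ranges overlapped, and the ratio of the protease pair did not pass an exact two-sided permutation test (p = 0.2, adjusted p = 0.2 over 6 ratios). With 3 libraries against 3 this test cannot go below 0.1.

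The genes of C1q itself, known as macrophage products, did not pass. C1qa had means of 87.0 ± 14.2 CPM in WT and 86.2 ± 17.4 in PLD, and the log2 fold changes of C1qa, C1qb and C1qc were -0.01, 0.04 and -0.01, with values between -0.37 and 0.15 over the alternatives, none of which passed. The difference between C1s1 and C1qa, a ratio chosen after its values were seen, was 0.777 to 1.03 in WT and 0.317 to 0.373 in PLD per unshared kb. That log2 ratio differed by -1.34 between the groups without overlap (exact two-sided permutation p = 0.1, the smallest possible, adjusted p = 0.12). The macrophage marker sums were 907 to 1217 CPM in WT and 1240 to 1685 in PLD, but the markers did not move together. Mean CPM rose for Cd14 (265 to 874), Csf1r (140 to 364) and Lyz2 (134 to 170). Mrc1 fell 8.67-fold, and Adgre1, Cd68, Clec4f and Marco did not pass.

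C4b encodes C4, which joins C2 in the C3 convertase of the classical and lectin pathways (ENSMUSG00000073418.4, chromosome 17, 34728380 to 34743882, minus strand). It had 618, 749 and 713 CPM in WT and 299, 112 and 170 CPM in PLD. PLD was lower throughout, but its libraries spanned 2.66-fold, the widest PLD range among the 9, with PLD replicate 1 highest. Its log2 fold change was -1.84 ± 0.33 SE (edgeR adjusted p = 0.00258), and -2.29 without PLD replicate 1. The partner gene C2 did not pass (40.7 ± 8.25 CPM in WT, 40.9 ± 3.89 in PLD, log2 fold change 0.01, and between -0.14 and 0.15 over the alternatives).

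Of the other genes for recognition and early proteases, 9 of 15 were tested, 4 fell and 0 rose, so that 44.4% were called beside 55.4% of all tested genes (28.4% lower). Fcna, a ficolin of the lectin pathway, fell by 2.42 ± 0.42 SE on the log2 scale and the lectin pathway protease gene Masp1 by 1.41 ± 0.27. The collectin genes Colec10 (-1.75 ± 0.47) and Colec11 (-1.23 ± 0.38) were lower as well, near the threshold (edgeR adjusted p = 0.0150 and 0.0264). Without WT replicate 2 the Colec10 call was lost (adjusted p = 0.0525), and the Colec11 call was lost without WT replicate 2 (0.0640) or WT replicate 3 (0.0736). The fibroblast and stellate sum was lower in PLD in the same libraries, and its part was not tested.

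C3 is the hub at which all activation routes meet, and its cleavage products coat targets and attract leukocytes (ENSMUSG00000024164.15, chromosome 17, 57203970 to 57228136, minus strand). It had the highest CPM of the 9 in every library, with 2385, 2899 and 2927 CPM in WT and 1598, 1041 and 1513 CPM in PLD. The highest PLD library stayed below the lowest WT library. The means were 2737 ± 305 and 1384 ± 300 CPM, a log2 fold change of -0.98 ± 0.20 SE (edgeR adjusted p = 0.00427).

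Cfb encodes factor B, the protease of the alternative pathway convertase (ENSMUSG00000090231.10, chromosome 17, 34856374 to 34862518, minus strand). It rose, from 46, 70 and 55 reads in WT to 95, 89 and 117 reads in PLD, with means of 3.41 ± 0.707 CPM in WT and 6.33 ± 0.819 in PLD. The log2 fold change was 0.89 ± 0.23 SE (edgeR adjusted p = 0.0128). These low counts come from a small piece of the gene. Of its 2825 exonic bases, 79.5% are shared with the annotated read-through gene Gm20547, which joins C2 and Cfb and had 0 reads in all 6 libraries, so only 579 bases could collect reads. Per unshared kb, Cfb stood at 0.251 to 0.348 of the C2 level in WT and at 0.510 to 0.628 in PLD (exact two-sided permutation p = 0.1, the smallest possible, adjusted p = 0.12). Properdin, which stabilises that convertase, did not pass (Cfp, log2 fold change -0.48), although it did without PLD replicate 3 (-0.72, edgeR adjusted p = 0.0329) and after the gene length correction (-0.74, 0.0408). Factor D, the protease that activates factor B, had at most 3 reads in any library.

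Cfi encodes factor I, the soluble protease that cuts C3b and C4b into inactive forms (ENSMUSG00000058952.12, chromosome 3, 129835884 to 129875332, plus strand). It was the steadiest of the rises, with 26.3, 28.7 and 30.0 CPM in WT and 55.9, 54.7 and 59.9 CPM in PLD. The libraries of each group lay close together and well apart from the other group. The log2 fold change was 1.00 ± 0.10 SE (edgeR adjusted p = 0.00022). Set against its substrate, the C3 level was 39.2 to 43.7 times that of Cfi per kb in WT and 8.21 to 12.3 times in PLD, a log2 difference of -2.01 (exact two-sided permutation p = 0.1, the smallest possible, adjusted p = 0.12). Like the other gene-to-gene ratios given here, this ratio restates the CPM changes of its genes and is not separate evidence.

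Serping1 encodes C1 inhibitor, which inactivates C1r and C1s and also plasma kallikrein (ENSMUSG00000023224.12, chromosome 2, 84765387 to 84775444, minus strand). It fell from 665, 900 and 823 CPM in WT to 368, 383 and 397 CPM in PLD. PLD libraries agreed within a 1.08-fold range and lay below every WT library. The log2 fold change was -1.06 ± 0.14 SE (edgeR adjusted p = 0.00068). The inhibitor thus fell together with its target proteases C1ra and C1s1. In the 3 PLD libraries all 3 genes were lowest in PLD replicate 1, where the fibroblast and stellate sum was 1795 CPM. PLD replicates 2 and 3 had fibroblast sums of 3733 and 4620 CPM. Much of that gap lay in Col1a1, Col1a2 and Col3a1, at 154, 180 and 177 CPM in PLD replicate 1. These collagen genes had 645, 583 and 1009 CPM in PLD replicate 2 and 806, 812 and 1427 in PLD replicate 3. Lum and Pdgfrb were also lowest in PLD replicate 1, while Dcn held level (841, 826 and 847 CPM). The endothelial sums were 289, 420 and 527 CPM in PLD replicates 1 to 3.

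Among 8 other soluble regulators 5 were tested, 2 fell and 1 rose, or 60.0% called, near the 55.4% of all tested genes. Vitronectin, which binds terminal complexes, fell by 1.42 ± 0.35 SE on the log2 scale (Vtn). Cfhr2 was also lower (log2 fold change -1.89 ± 0.49 SE), a call lost without PLD replicate 2 (edgeR adjusted p = 0.0570). Clusterin, another inhibitor of terminal complex assembly, was the most abundant gene of the whole list and rose from 5955 ± 1140 to 12478 ± 1120 CPM (Clu, log2 fold change 1.07 ± 0.20 SE, adjusted p = 0.00354). C4bp differed widely within WT, with 1658 reads in WT replicate 1 against 279 and 239 in the others, and did not pass (log2 fold change -0.21 ± 0.68 SE). Without WT replicate 1 its direction turned and it was called higher (1.25, edgeR adjusted p = 0.00318). Cpn1, which encodes the catalytic subunit of the anaphylatoxin-trimming carboxypeptidase N, did not pass (0.46 ± 0.33 SE), although it was called higher without PLD replicate 1 (0.80, edgeR adjusted p = 0.00326).

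Cd55 encodes decay-accelerating factor, which dismantles C3 convertases on host cells (ENSMUSG00000026399.12, chromosome 1, 130439027 to 130462744, minus strand). It had 98.9, 196 and 201 CPM in WT and 67.0, 44.2 and 48.5 CPM in PLD. WT replicate 1 was 2.03-fold below the highest WT library, the widest WT range among the 9, but remained above every PLD library. The log2 fold change was -1.64 ± 0.29 SE (edgeR adjusted p = 0.00244). Like C3 and C4b, Cd55 was highest in PLD replicate 1 among the PLD libraries.

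Cd59a encodes the membrane protein that blocks the last step of pore formation (ENSMUSG00000032679.12, chromosome 2, 104095801 to 104115354, plus strand). It had 82.4, 89.6 and 90.8 CPM in WT and 14.5, 18.4 and 18.4 CPM in PLD, the largest change of the 9. The groups were far apart and each was narrow. The log2 fold change was -2.36 ± 0.13 SE (edgeR adjusted p = 3.3e-05). All 10 endothelial markers, with a median log2 fold change of -3.66, fell in the same libraries, and their part in the fall of Cd59a was not tested. The ratio of Cd55 to Cd59a per unshared kb was 0.458 to 0.846 in WT and 0.914 to 1.77 in PLD (exact two-sided permutation p = 0.1, the smallest possible, adjusted p = 0.12).

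Other membrane regulators went both ways, with 3 of 5 tested lower and 1 higher, beside 28.4% lower and 27.0% higher over all tested genes. Of these 4 calls, those of Susd4 and Cd46 were lost when libraries were left out. Cr1l, the rodent regulator Crry that limits C3 convertases, did not pass (72.4 ± 2.57 and 64.9 ± 3.95 CPM, log2 fold change -0.16, or 0.08 after a gene length correction). The large transmembrane genes Csmd3 and Csmd1 fell, with log2 fold changes of -3.10 ± 0.35 and -2.63 ± 0.48 SE, from low levels (218 to 24 and 187 to 28 reads over 3 libraries). Susd4 rose by 0.69 ± 0.21 SE, a call lost without WT replicate 1 (edgeR adjusted p = 0.0599) or WT replicate 2 (0.0624). Cd46 was lower by -0.84 ± 0.31 SE on 112 and 59 reads, with an adjusted p of 0.0477 that rose above 0.05 without any one of the 6 libraries (0.0577 to 0.147).

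Of the terminal pathway genes 5 of 6 tested were lower, beside 28.4% of all tested genes, with a median log2 fold change of -3.11. C7, a component of the membrane pore, had means of 422 ± 15.5 CPM in WT and 33.5 ± 9.94 in PLD (log2 fold change -3.66 ± 0.21 SE, edgeR adjusted p = 4.1e-05). Hc, the mouse gene of C5, had 399 reads in WT and 50 in PLD over 3 libraries each, C8a 210 and 20, and C9 168 and 12, with log2 fold changes of -2.92, -3.31 and -3.70. C8g fell less (-1.18 ± 0.26 SE). C6 did not pass (-0.99 ± 0.38 SE, edgeR adjusted p = 0.0573). It did without PLD replicate 1 (-1.32, edgeR adjusted p = 0.0214), without WT replicate 1 (-1.29, 0.00961), with no filter on low counts (0.0262) and with DESeq2 (0.0229). The hepatocyte markers Cps1, Ahsg and Serpina1c fell in the same libraries (-4.11, -3.83 and -2.58), while Cyp2e1 and Ttr rose (1.81 and 0.69), and their part was not tested.

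Among the 9 tested receptor genes 6 fell and 1 rose, or 77.8% called beside 55.4% of all tested genes. The anaphylatoxin receptor genes C5ar2 and C5ar1 fell, with log2 fold changes of -3.13 ± 0.42 and -0.87 ± 0.15 SE. Cd93, a surface glycoprotein of endothelial cells once described as a C1q receptor, fell by 2.61 ± 0.17, beside the endothelial median of -3.66. C1qbp, which encodes a mostly mitochondrial protein that can bind C1q, rose from 47.6 ± 3.94 to 81.3 ± 9.20 CPM (0.77 ± 0.12). Over the whole pathway list of 59 genes, 44 were tested, 27 fell and 5 rose. Without the 9 members 20 of 35 fell, or 57.1%, and 3 rose, beside 28.4% and 27.0% of all tested genes.

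**Figure D2:**
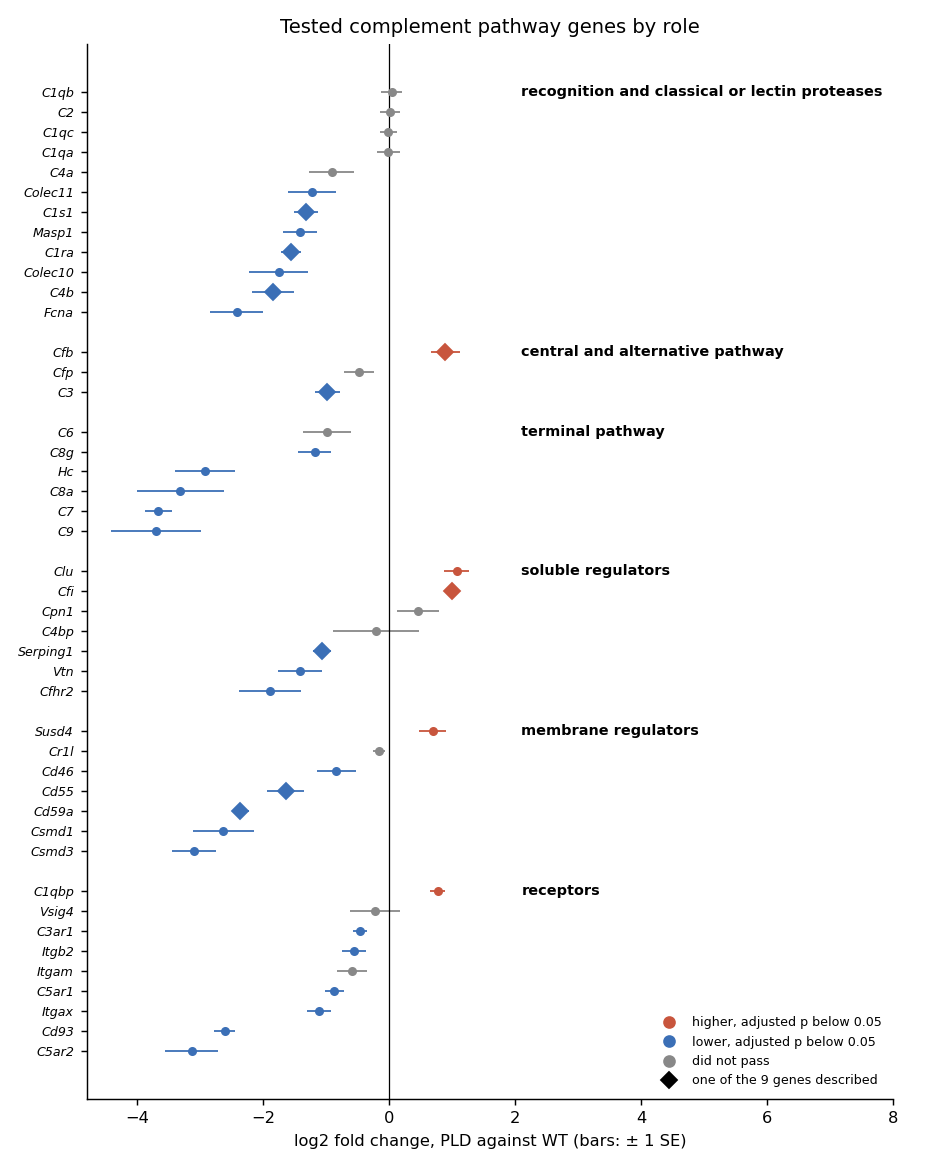
Log2 fold change of PLD against WT with its SE for the 44 tested complement genes, grouped by role, with diamonds for the 9 genes described in full and colour for the call. The C1q genes sit at 0, the terminal pathway genes C9 and C7 lie furthest left at -3.70 and -3.66, and Clu and Cfi lead on the right.

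Levels of different genes were compared per kb of unshared exonic sequence. In WT the order was C3 (532 ± 59.3 CPM per kb), Serping1 (342), C4b (122), C1s1 (73.0), Cd59a (48.4), Cd55 (34.8), C1ra (32.7), Cfi (12.8) and Cfb (5.89). Only Cd55 and C1ra, at 20.8 to 42.4 and 28.9 to 36.5 CPM per kb, overlapped among neighbours in that order. In PLD C3 (269 ± 58.4) and Serping1 (165) still led without overlap. C4b, C1s1 and Cfi (34.0, 29.2 and 25.6) overlapped with one another, as did Cd55, C1ra, Cfb and Cd59a (11.2, 11.1, 10.9 and 9.43). Cfi thus moved from the eighth place to the fifth, and Cd59a from the fifth to the last.

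**Figure D3:**
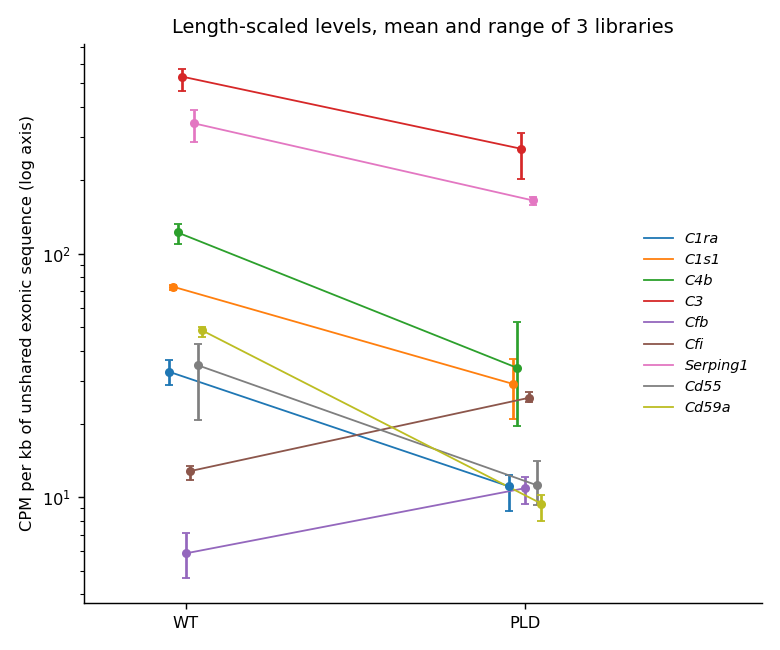
Mean level of each of the 9 genes in CPM per kb of unshared exonic sequence on a log axis, WT on the left and PLD on the right, with bars from the lowest to the highest of 3 libraries. Lines of Cfi and Cfb rise on this scale (not per Epcam read, which lowers all genes alike), the other 7 fall, and C4b has the longest PLD bar, from 19.7 to 52.5.

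Some of these levels are lowered by near-identical copies, since reads that fit several places were not counted under the program's default. Of the 50-base words in the C4b transcripts 34.6% also occurred in C4a, of those in C1ra 48.0% in C1rb and of those in C1s1 21.8% in C1s2. Cd55 shared 8.0% of its words with Cd55b and Cd59a shared 3.87% with Cd59b, while C3, Cfi and Serping1 shared 0. Few reads were assigned to the copies: C4a had 196 over all 6 libraries, Cd59b 38, C1s2 11, and C1rb and Cd55b 5 each. C4a did not pass (log2 fold change -0.91 ± 0.36 SE, edgeR adjusted p = 0.0605), although it did without PLD replicate 1 (adjusted p = 0.0250). In C1s1 a further 18.4% of exonic bases lie under the antisense gene Gm16567. Without strand information, reads that overlap both genes were not counted for either under the program's default.

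Setting each gene against Epcam, the target of the beads, gives its level per epithelial reads. Epcam itself rose, with 394, 254 and 417 CPM in WT and 1363, 973 and 919 CPM in PLD, so this scale lowers every gene in PLD. The median log2 ratio of PLD to WT per Epcam read was -1.63 over the 15334 tested genes, and 89.0% of them lay below WT without overlap. Values per Epcam read are therefore read against that median. C3 had 605, 1141 and 703 reads per 100 Epcam reads in WT and 117, 107 and 165 in PLD, a 6.3-fold lower mean. Cd59a was 15.7-fold lower on this scale, C4b 12-fold, Cd55 10.2-fold, C1ra 9.15-fold, C1s1 7.54-fold and Serping1 6.58-fold, with no overlap between groups. Relative to the median of all genes the log2 ratios of these 7 ran from -2.34 for Cd59a to -1.02 for C3. Subtracting that median takes Epcam out again for any gene. By construction these values therefore closely repeat the CPM log2 fold changes (-2.36 and -0.98) and are not separate evidence.

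Cfi had 6.66, 11.3 and 7.21 reads per 100 Epcam reads in WT and 4.10, 5.62 and 6.51 in PLD, a log2 ratio of -0.63 that is 1.00 above the median of all genes. Cfb had 0.689, 1.62 and 0.816 in WT and 0.480, 0.558 and 0.764 in PLD, and the groups overlapped, with a log2 ratio of -0.80 that is 0.84 above the median. Lower values on this scale are not particular to Cfi and Cfb, because every gene is divided by Epcam, which rose. All 12 epithelial and cholangiocyte markers rose as well, with a median log2 fold change of 1.61. Their part in the CPM rises of Cfi and Cfb was not tested. The exact two-sided permutation test of the values per Epcam read, which holds the same shift, gave p = 0.2 for Cfb and 0.1, the smallest possible, for the others (adjusted p = 0.2 and 0.113 over 9 genes). Per 100 Cdh1 reads, an adhesion gene of epithelia, the means of Cfi were 2.11 in WT and 1.6 in PLD and the groups overlapped too. Of the 9 genes 8 were below WT without overlap per Epcam read, where 89.0% of all tested genes were. Per Cdh1 read 7 were, beside 83.8% of all genes, and per read of Epcam, Cdh1, Krt8 and Krt18 together 7, beside 87.0%. These counts are near or below the background share.

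**Figure D4:**
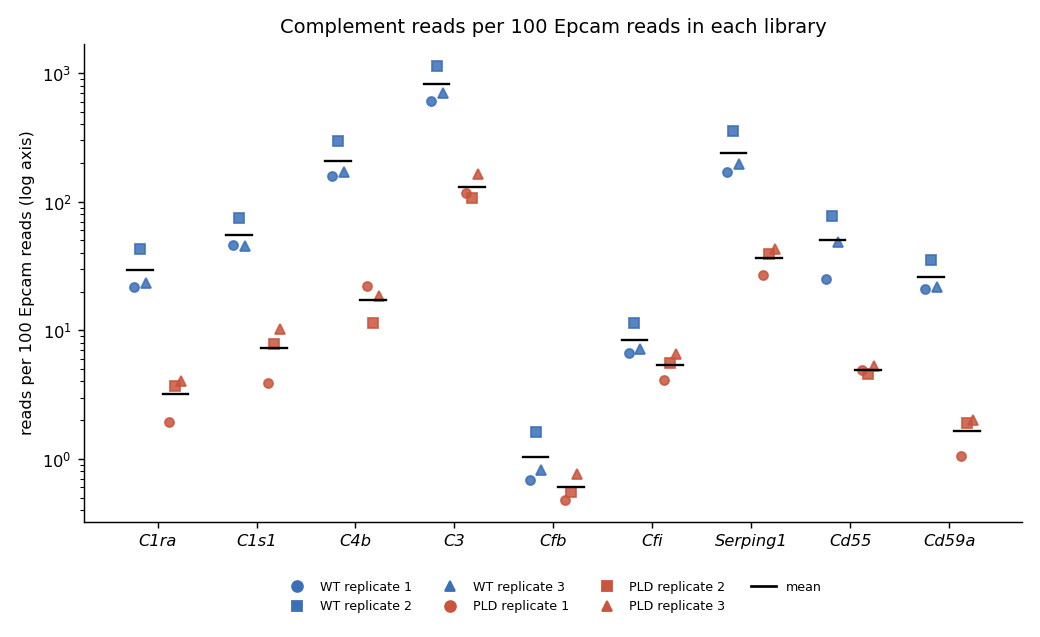
Reads of each of the 9 genes per 100 Epcam reads of the same library on a log axis, with 1 point per library (blue WT, red PLD, shape by replicate) and a bar at the group mean. PLD points lie below WT points for 8 genes, as for 89.0% of all tested genes, and those of Cfb overlap, at 0.480 to 0.764 against 0.689 to 1.62.

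All 9 genes were lowest in WT replicate 1 among the WT libraries on the log2 CPM scale. The share of all tested genes lowest there was not counted, and some gaps were small (C1s1 180 against 189 and 190 CPM). That library also had the lowest fibroblast and stellate (7347 CPM), endothelial (4354), hepatocyte (1371) and mesothelial (117) sums in WT. The epithelial, macrophage and neutrophil sums were lowest in WT replicate 2 (8180, 907 and 19.5 CPM). Within PLD the genes split. C1ra, C1s1, Serping1 and Cd59a were lowest in PLD replicate 1, which had the lowest fibroblast and endothelial sums of all libraries. Among the PLD libraries the hepatocyte (2063 CPM) and macrophage (1240) sums were also lowest there, while the mesothelial (1166) and neutrophil (16.3) sums were highest. C3, C4b and Cd55 were highest in PLD replicate 1, as was the epithelial sum (34306 CPM against 28817 and 26094 in PLD replicates 2 and 3). These genes were lowest in PLD replicate 2, whereas the epithelial sum was lowest in PLD replicate 3. Cfb and Cfi were lowest in PLD replicate 2 and highest in PLD replicate 3. Whether these marker levels account for the split was not tested.

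For each gene the closest pattern over the 6 libraries was sought among 9976 other genes, by the Euclidean distance of log2 CPM centred on each gene's mean. Between PLD and WT this distance largely reflects a like fold change, such as -1.09 for Stim1 beside -1.06 for Serping1. Shared regulation was not tested. The nearest were Stim1 (distance 0.0686) and the fibroblast gene Dcn (0.135) for Serping1, Pknox2 (0.088) and Flna (0.151) for C1s1 and St6galnac6 (0.112) and Asap1 (0.159) for C1ra. Pym1 (0.155) and Itpa (0.157) were nearest to Cfi, and Gsn (0.173) and Ttc7b (0.187) to Cd59a. C3 lay nearest to Slc4a7 (0.202) and Fmnl1 (0.287), Cfb to Dohh (0.203) and Dusp18 (0.267) and Cd55 to Inhbb (0.289) and Gfpt2 (0.416). C4b had the most distant neighbours, Col23a1 (0.444) and Mmp28 (0.588). Within the 9, C1ra and C1s1 were each other's nearest (0.406), as were Cfb and Cfi (0.415), C3 and Serping1 (0.511) and C4b and Cd55 (0.963), while Cd59a lay nearest to C1ra (0.985).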

How the data were processed

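The authors deposited unnormalised counts of reads for each gene and library, made with featureCounts 1.6.0 on GENCODE vM25 of mm10, per the file headers, with no option for strand, pairs, multi-mapping or overlapping genes. STAR 2.7.4a, SAMtools 1.12 and DESeq2 1.26.0 are named in the submitters' processing notes. Of 55401 gene IDs 55141 matched a GENCODE vM21 symbol. From the counts, edgeR 4.0.16 (R 4.3.3; filterByExpr, TMM, quasi-likelihood F test of PLD against WT, Benjamini-Hochberg adjustment, threshold 0.05) tested 15334 genes. The SE is the log2 fold change divided by the square root of F. Depth was 15768561 to 16710548 reads, so 3 counts equal 0.180 to 0.190 CPM. Replicates differed by more than sampling noise (chi-square per degree of freedom 9.72 to 63.9). The functions were tested on simulated data.

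The members and gene lists were chosen with earlier results of these data known. Named beside the members were up to 4 genes per role with the smallest p, and near-identical copies; 1 pathway gene is not reported here and is left out of the pathway counts. C1q genes, C6, Cr1l, C4bp, Cfd, Gm20547 and Gm16567 were named after their values were seen. Unshared sequence is exonic bases that no other gene of the files covers. Alternatives were DESeq2 1.42.0, limma-voom (limma 3.58.1), other factors and filters, a robust fit, a replicate block, a length correction, a stricter threshold and each library left out.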

Additional observations from a re-analysis of the deposited data

How the results depend on the processing

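All 7 falls and both rises among the 9 genes kept direction and stayed below an adjusted p of 0.05 under all 15 alternative fits. The exception at a threshold of 0.01 was Cfb (log2 fold change 0.89, edgeR adjusted p = 0.0128), which left 1 member higher and 7 lower. At that threshold 2657 genes were higher, and 3 of the pathway list. With each library left out in turn, the pathway list held 23 to 30 lower and 4 to 6 higher genes. Of the genes that did not pass, C2, C1qa, C1qb, C1qc and Cr1l turned sign under some alternatives without passing, and C4bp turned and passed without WT replicate 1. Cfp, C6, C4a and Cpn1 kept their sign and passed under some. C2 came to -0.003 with 1 CPM required in 3 libraries, to -0.005 after the length correction and to -0.14 to 0.15 with a library left out. C1qa came to 0.008 and C1qc to 0.007 with no filter, C1qb to -0.32 and Cr1l to 0.08 after the length correction, and C4bp to 0.34 with limma-voom and 0.39 with the replicate block. With a library left out, ranges were C1qa -0.15 to 0.14, C1qb -0.10 to 0.15, C1qc -0.12 to 0.06 and C4bp -0.62 to 1.25. Among the other named genes, 413 of 464 single values kept direction and side of the threshold.

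With the replicate number as a block, 2 members were higher and 7 lower, and 3920 genes were higher and 4242 lower; the Cd46 call was lost (edgeR adjusted p = 0.0606) and Cfp passed (0.0221). Same-numbered libraries deviated together only weakly (correlations of 0.16, 0.04 and 0.06), so the numbers were not taken as pairs, and not every library correlated best with its own number. Low counts limit Cfb, Cd46 and the low terminal pathway genes, and 15 of the 59 listed genes had too few reads to be tested.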
